A study of Mus musculus with 4 samples.

Results

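Cells sorted by S100B-driven GFP fluorescence from mouse hindlimb muscle were compared with the GFP-negative cells of the same mice, once within the wild-type genotype and once within the Sod1 knockout genotype. The comparison used all 4 of the 4 single-cell RNA libraries, which form 2 pairs of GFP+ and GFP-, and 18153 of the 21415 deposited barcodes. A barcode was kept when it had over 200 detected genes and under 10% of its unique molecular identifiers (UMIs, each standing for 1 captured transcript) from mitochondrial genes. The kept barcodes numbered 4767 in WT GFP+, 1665 in WT GFP-, 6291 in Sod1KO GFP+ and 5430 in Sod1KO GFP-.

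All mice were males of 2 months that carried the S100GFP-tg transgene, which places EGFP under the S100B promoter. The WT mice were S100GFPtg Sod1+/+ and the Sod1KO mice S100GFPtg Sod1-/-, with 4 mice pooled per genotype before sorting. Tibialis anterior and gastrocnemius muscles were digested with enzymes, living cells were sorted as GFP+ or GFP-, and each fraction became 1 droplet library read at the 3' end. Each group is therefore 1 library, and the repeat of the sort comparison is the other genotype.

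S100B is a small calcium-binding protein that is abundant in glia, and reporters built on its promoter are used to see Schwann cells on peripheral nerve and at neuromuscular junctions. Myelinating Schwann cells wrap axons with a membrane rich in myelin basic protein (Mbp), and Sox10 is the transcription factor of the whole Schwann lineage. Hindlimb muscle also holds capillaries, arteries and veins, the smooth muscle and pericytes around them, connective-tissue fibroblasts and the cells of tendon.

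The libraries varied in depth, with medians of 13122, 8275, 13644 and 15273 UMIs per kept barcode in the order WT GFP+, WT GFP-, Sod1KO GFP+ and Sod1KO GFP-, and every list of 4 values below keeps this order. WT GFP- was the smallest and shallowest library. Any 2 libraries shared between 1 and 13 barcode sequences. Sod1 was not lower in the libraries labelled Sod1KO, at 91.2, 124, 97.2 and 112 CPM (UMIs of a gene scaled to the same total for every library). No source used here states which part of the gene the allele lacks, and 3' tags outside a deletion check nothing, so genotypes are given as labelled. Of the 32285 genes listed, 0 are named for GFP, and the sort was read only through S100b, which had 135, 7.40, 89.2 and 7.48 CPM over all cells.

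A cell was assigned to a class when at least 3 of the fixed markers of the class had a UMI, and a cell could belong to several classes. Endothelial cells were called from Pecam1, Cdh5, Cldn5, Kdr and Egfl7, fibroblasts from Pdgfra, Dcn, Lum, Dpt and Pi16, and smooth muscle cells from Myh11, Pln, Lmod1 and Acta2. The other 13 of the 16 classes were called in the same way. The rule has a sharp edge. Smooth muscle cells of the GFP- libraries lay mostly at it, with exactly 3 of the 4 markers in 248 of 326 cells of WT GFP- and 581 of 911 of Sod1KO GFP-, and 350 and 878 further cells had 2. In the GFP+ libraries 204 of 801 and 241 of 717 smooth muscle cells had exactly 3. In WT GFP-, 52 of the 165 fibroblasts had exactly 3 markers and a further 78 cells had 2, whereas 108 of the 1320 endothelial cells had exactly 3 and 93 cells had 2.

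With cells of several classes counted in each, the GFP+ libraries were rich in Schwann cells, tenocytes and perineurial cells in both genotypes. The GFP- libraries were rich in endothelial cells and pericytes. For perineurial cells and pericytes this order did not hold in both pairs among cells without markers of an unrelated class. Schwann cells were 42.9% of WT GFP+ cells (95% interval 41.5 to 44.3, 2045 cells) and 35.8% of Sod1KO GFP+ cells (34.6 to 37.0). They were 0.541% (0.247 to 1.02) of WT GFP- cells and 0.313% (0.182 to 0.501) of Sod1KO GFP- cells, which amounts to 9 and 17 cells. The GFP+ share was 79.4-fold the GFP- share in WT and 114-fold in Sod1KO, a mean difference of 38.9 percentage points ± 4.85 (SD, n = 2 pairs). These shares describe sorted fractions rather than the muscle, because the sort set them. All such intervals are exact binomial or Poisson intervals that cover counting error only.

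The GFP+ libraries also held other classes, counted whether or not a cell had Schwann markers too. Endothelial cells still made up 13.1% of GFP+ in WT and 10.3% in Sod1KO, against 79.3% and 60.9% of GFP-. The endothelial share was thus 6.04-fold lower in GFP+ in WT and 5.92-fold lower in Sod1KO, a mean difference of -58.4 points ± 10.97 (SD, n = 2 pairs). Pericytes, the mural cells of capillaries, were 15.6%, 53.3%, 10.9% and 36.4%, which was 3.41-fold and 3.34-fold lower in GFP+. Lymphatic endothelial cells were 7.32-fold and 9.70-fold lower in GFP+, at 0.189%, 1.38%, 0.302% and 2.93%. Cells with at least 3 red cell markers were 0.482%, 7.15%, 0.858% and 5.43%, again lower in both GFP+ libraries.

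Several connective-tissue classes were larger in GFP+. Tenocytes, called from Tnmd, Scx, Fmod, Thbs4, Kera and Chad, were 16.05%, 7.57%, 26.1% and 8.73%, a mean difference of 12.9 points ± 6.26 (SD, n = 2 pairs). Perineurial cells, which form the sheath around nerve fascicles, were 10.1%, 1.68%, 9.22% and 2.71%. Endoneurial fibroblasts, which lie between the nerve fibres, were 1.78%, 0.240%, 2.81% and 1.22%. Macrophages were 2.52%, 1.08%, 3.08% and 1.40%. In each of these 4 classes the GFP+ library was the higher one of both pairs. With 2 pairs, the smallest p an exact permutation test can give is 0.5, so no share was tested.

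Fibroblasts and smooth muscle cells differed less between the sorts. Fibroblasts were 14.2% (677 cells), 9.91% (165), 23.4% (1469) and 18.0% (979), which put GFP+ higher by 4.81 points ± 0.728 (SD, n = 2 pairs). Smooth muscle cells were 16.8% (801 cells), 19.6% (326), 11.4% (717) and 16.8% (911), a mean difference of -4.08 points ± 1.84 (SD, n = 2 pairs). The smooth muscle difference turned to 5.43 points when cells with markers of an unrelated class were left out, to 1.79 points when each marker needed 2 UMIs and to 4.35 points when every cell was thinned to 2000 UMIs. No direction is given for smooth muscle cells for that reason.

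**Figure D1:**
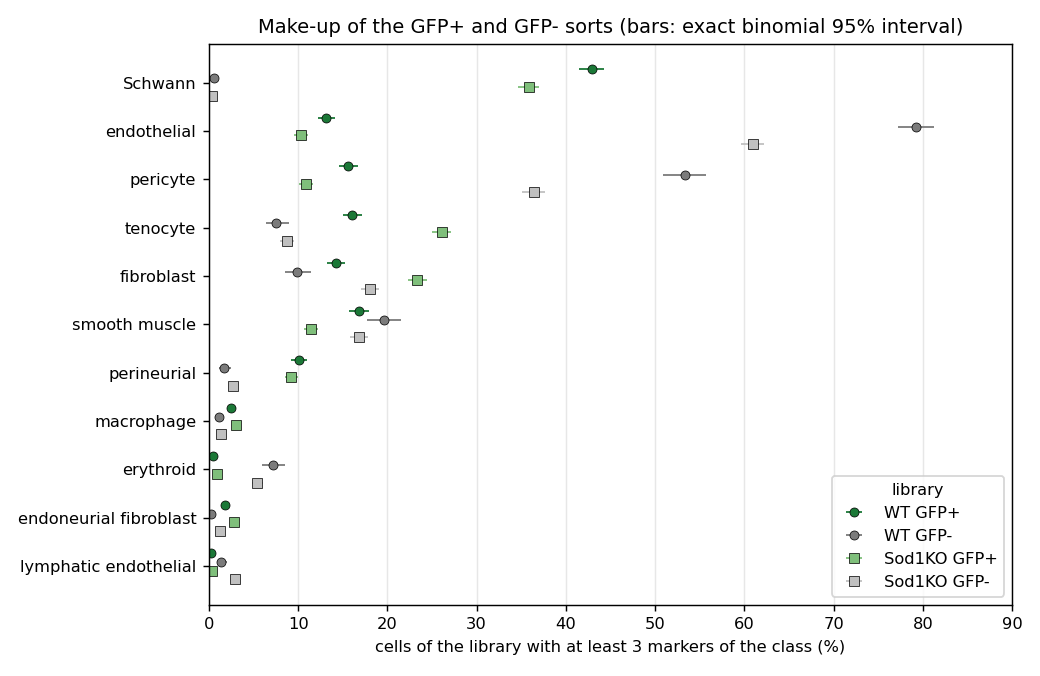
Share of kept cells (%, horizontal axis) with at least 3 markers of each class, 1 point per library, with exact 95% binomial intervals as error bars. Schwann cells stand at 42.9% and 35.8% in the GFP+ libraries and under 1% in the GFP- libraries, and endothelial cells show the opposite order.

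Many cells carried markers of 2 or more classes, at 31.3%, 55.1%, 29.1% and 43.6% of the kept cells. The plot of class shares therefore counts some cells more than once. Among endothelial cells, 53.4%, 64.3%, 57.3% and 55.0% also had at least 3 markers of an unrelated class. The overlap differed between the sorts in kind. Schwann markers were present in 15.8% (WT) and 13.6% (Sod1KO) of the endothelial cells of GFP+, against 0.303% and 0.0605% in GFP-. In fibroblasts the unrelated overlap was 18.2%, 77.6%, 29.3% and 19.9%, so that only 37 of the 165 fibroblasts of WT GFP- were free of it. In smooth muscle cells it was 30.1%, 84.4%, 42.1% and 73.7%, and 271 of the 326 smooth muscle cells of WT GFP- also had at least 3 endothelial markers. How far doublets or free RNA account for such cells was not tested. The overlap touched the shares above. Counted in single-class cells alone, the mean difference was 26.6 points ± 4.28 for Schwann cells, -22.6 ± 0.616 for endothelial cells and 12.0 ± 2.03 for tenocytes (SD, n = 2 pairs), but 0.498 ± 2.51 for pericytes, 0.0821 ± 0.705 for perineurial cells, 0.0124 ± 0.0756 for red cells and 0.293 ± 0.217 for endoneurial fibroblasts (0.0281 ± 0.00781 over all cells thinned to 2000 UMIs). Most of the difference for pericytes, perineurial cells, red cells and endoneurial fibroblasts thus rests on cells that also carried markers of other classes. Single-class pericytes numbered 389, 98, 281 and 312, and single-class perineurial cells 42, 5, 63 and 77. As shares of the kept cells, both were higher in GFP+ in WT and lower in Sod1KO.

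Each class was therefore compared over all of its cells and again over its single-class cells, which had fewer than 3 markers of every unrelated class.

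**Figure D2:**
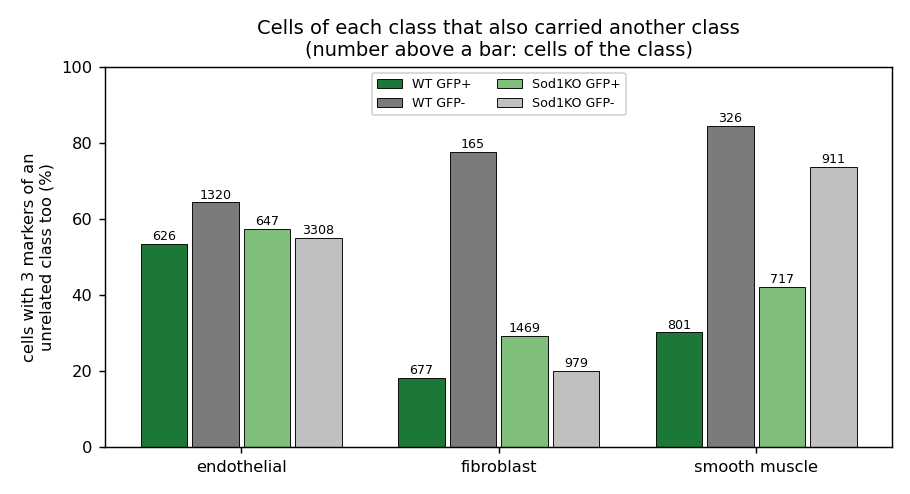
Share of endothelial, fibroblast and smooth muscle cells (%, vertical axis) that also had at least 3 markers of an unrelated class, by library, with the number of cells of the class above each bar. The smooth muscle cells of both GFP- libraries (84.4% and 73.7%) and the fibroblasts of WT GFP- (77.6%) overlap most.

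For each class the UMIs of all its cells were summed per library, and GFP+ was tested against GFP- by edgeR's quasi-likelihood test with genotype as a block and Benjamini-Hochberg adjustment over all genes tested. The test asks whether GFP+ and GFP- differ on average over the WT and Sod1KO pairs. It has 1 residual degree of freedom, so the spread of a gene comes from the disagreement of its pairs, moderated by the spread of other genes. A sum over cells cannot tell a larger share of one subtype from a higher level per cell. A log2 difference below is GFP+ over GFP- as fitted over both pairs, with its standard error (SE).

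Over all endothelial cells, 6 of the 7 genes tested in the myelinating Schwann list were called higher in GFP+, and 7 of 10 capillary genes lower. Of 9233 genes tested, 680 were higher in GFP+ (7.36%) and 325 lower (3.52%). Chl1, a cell adhesion molecule of neurons and glia, had 126, 0.172, 92.3 and 0.085 CPM, a log2 difference of 9.80 (SE 0.19, adjusted p = 7.5e-05). Both GFP- libraries were near 0 for it, at 3 and 5 UMIs. Cdh19, a cadherin of the Schwann lineage, had 173, 0.229, 89.1 and 0.306 CPM (log2 difference 8.53). The receptor phosphatase gene Ptprz1 and the glial receptor gene Gpr37l1 had log2 differences of 8.54 and 9.18.

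All 6 of the 6 Schwann class markers were called higher in endothelial cells of GFP+. Their summed level was 1009 CPM in WT GFP+ and 538 in Sod1KO GFP+, against 32.6 and 6.97 in GFP-. S100b itself had 44.1, 2.01, 35.6 and 2.59 CPM, a log2 difference of 4.01 (SE 0.19, adjusted p = 3.8e-04). Tendon genes took the same direction in these cells, with 10 of 12 called higher. The cells with markers of an unrelated class were then left out, a step that uses these same Schwann markers. After it, none of the 6 Schwann markers passed the filter on low counts, and S100b had 2.32, 1.90, 4.48 and 2.46 CPM from 7, 10, 13 and 45 UMIs.

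Genes lower over all endothelial cells of GFP+ included Sfrp2, a secreted Wnt modulator of stromal cells, at 1.36, 31.5, 2.93 and 17.6 CPM (log2 difference -3.46, adjusted p = 0.0077). In Sod1KO GFP-, 89.2% of the Sfrp2 UMIs came from 1 cell, so the Sod1KO difference rests largely on that cell. Vtn, which encodes vitronectin, had 244, 500, 162 and 341 CPM (-1.08). Adh1, an alcohol dehydrogenase, had 60.8, 142, 45.9 and 93.0 CPM (-1.15). The GFP+ library of each pair had the lower value for these 3 genes. Pericyte genes were lower too, with 7 of 11 called, beside pericyte markers in 41.4%, 58.6%, 40.2% and 47.7% of endothelial cells.

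In the single-class endothelial cells, which numbered 292, 471, 276 and 1489, the genes of venous endothelium were higher in GFP+ and those of capillary endothelium lower. Of 8555 genes tested, 219 were higher in GFP+ (2.56%) and 54 lower (0.631%). The venous list had 10 members tested, of which 7 were called higher and 0 lower (10 of the 10 had a fitted difference above 0), with a median log2 difference of 1.85 against -0.01 over all genes. Over all endothelial cells, 5 of the 10 were called higher, with a median of 1.19. The single-class median was 2.05 in the WT pair and 1.62 in the Sod1KO pair. All gene lists were chosen with earlier results of these data known, so their counts and medians describe and do not test. Selp, Csf2rb, Plvap and Lrg1 of the venous list were also among the 12 highest genes of the same comparison.

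Selp encodes P-selectin, which catches leukocytes on activated venules. It had 402, 36.2, 472 and 85.1 CPM, a log2 difference of 2.93 (SE 0.22, adjusted p = 0.0012). Its UMIs came from 40, 15, 56 and 88 cells. Ackr1, the atypical chemokine receptor of venules, had 105, 13.5, 156 and 23.0 CPM, or 7.79-fold and 6.79-fold more in GFP+ (log2 difference 2.85, SE 0.13, adjusted p = 3.3e-04). Both GFP+ libraries lay above both GFP- libraries for each of these genes.

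Plvap, which forms the diaphragms of fenestrae and caveolae, had 474, 73.5, 537 and 149 CPM (log2 difference 2.25, adjusted p = 0.0016). Csf2rb, the shared receptor chain for GM-CSF and related cytokines, had 67.8, 4.38, 52.0 and 10.6 CPM (2.88). Lrg1, a leucine-rich glycoprotein of venous endothelium, had 224, 29.3, 274 and 80.4 CPM (2.28). Vcam1, a leukocyte adhesion receptor, and Vwf, von Willebrand factor, differed less, by 1.45 and 0.76 on the log2 scale. Nr2f2, Icam1 and Ephb4 did not pass the test.

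Other genes followed the same order in single-class endothelial cells. Nt5e, the ectoenzyme CD73, had 17.2, 1.14, 30.6 and 3.67 CPM (log2 difference 3.28). Mctp1, a membrane protein with calcium-binding C2 domains, had 185, 18.1, 331 and 46.6 CPM (3.04, adjusted p = 3.3e-04). Slco2a1, the prostaglandin transporter, had 85.0, 10.3, 123 and 31.1 CPM (2.38). Il6, which encodes interleukin 6, had 46.3, 4.76, 76.1 and 21.2 CPM (2.29, adjusted p = 0.0065). S100a4 was the 1 member of 7 tested in the S100 family that was called, at 261, 48.0, 202 and 66.3 CPM (2.01). The adhesion receptor Adgrg6, Myof, Myrip and Csf2rb2 were also called higher.

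The 7 venous calls depended on the genotype block: without it and with all 4 libraries the list had 0 calls and a median of 1.79. Leaving out 1 library required the block to be dropped too, and the list had 1 call without WT GFP+, 2 without WT GFP-, 0 without Sod1KO GFP+ and 5 without Sod1KO GFP-, and its median lay between 1.41 and 2.30. The list had 7 calls when the richest cell of each gene was left out of each library, and 8 with a median of 1.82 when lymphatic endothelial cells were left out too.

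Capillary genes moved the other way, with 5 of 10 called lower, 0 higher and a median log2 difference of -0.43. Timp4, a metalloproteinase inhibitor, had 665, 1086, 338 and 545 CPM (log2 difference -0.69, SE 0.09, adjusted p = 0.0072). Lpl, lipoprotein lipase, had 281, 432, 235 and 369 CPM (-0.62). Aqp7, a glycerol channel, Gpihbp1, the endothelial carrier of lipoprotein lipase, and Cd36, a fatty acid transporter, had log2 differences of -0.60, -0.45 and -0.40. The level of each of these genes was lower in the GFP+ library of both pairs. None was called without the block and with all 4 libraries, where the median was -0.42, nor with 1 library left out as well, where it ran from -0.71 to -0.07.

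Of the arterial list, 1 of 12 members passed, the kinase gene Bmx at 0.79, and the list median was 0.42 in the WT pair and -0.14 in the Sod1KO pair. The 6 lymphatic markers all had fitted differences below 0 and 1 was called, Reln, which encodes the extracellular glycoprotein reelin, at 19.5, 127, 70.6 and 163 CPM (log2 difference -1.80, adjusted p = 0.02). Meis2, a homeobox transcription factor, had 11.3, 28.7, 17.6 and 57.3 CPM (-1.55). Adh1, Medag, Pkhd1l1, Plce1, the guidance ligand Sema3a and Ulk4 were called lower as well.

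Of the 219 genes higher in single-class endothelial cells of GFP+, 27 had over 50% of their UMIs of a GFP+ library in 1 cell. Lyz2, the macrophage lysozyme, was one of them, with 206, 2.66, 47.9 and 2.57 CPM and 95.2% of its WT GFP+ UMIs from 1 cell. The higher genes named above by rank in single-class cells had at most 25% of the UMIs of a GFP+ library in 1 cell. For the lower genes the limit applied to the GFP- libraries instead, and their few GFP+ UMIs could be more concentrated. Plce1, for example, had 42.9% and 35.3% of its UMIs of WT GFP+ and Sod1KO GFP+ in 1 cell.

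**Figure D3:**
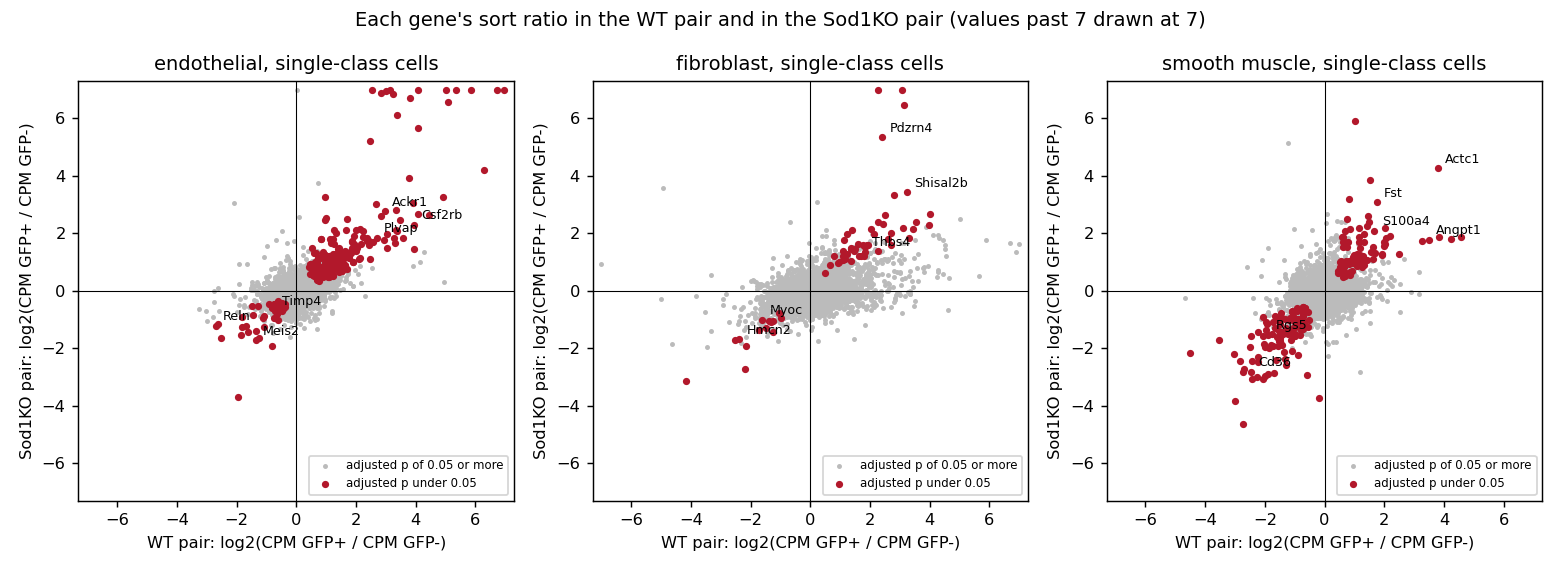
Log2 ratio of GFP+ over GFP- CPM of each gene tested in single-class cells, in the WT pair (horizontal axis) and the Sod1KO pair (vertical axis), with genes of adjusted p under 0.05 in red. Venous genes such as Ackr1, Plvap and Csf2rb lie at the upper right for endothelial cells, and Rgs5 and Cd36 at the lower left for smooth muscle cells.

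Over all fibroblasts, 6 of the 9 genes tested in the myelinating Schwann list were called higher in GFP+. Of 9154 genes tested, 24 were called higher (0.262%) and 0 lower (0%) by edgeR, with 387 lower at an unadjusted p under 0.05 and 176 called lower by DESeq2. Mbp had 129, 2.11, 138 and 2.47 CPM, a log2 difference of 5.84 (SE 0.29, adjusted p = 0.031). Sox10 had 20.4, 0, 37.1 and 0.784 CPM. Schwann markers were present in 11.2%, 0.606%, 17.6% and 0.102% of fibroblasts.

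Other genes of myelinating Schwann cells were called with them, including Mal, Ncmap, the potassium channel gene Kcna1 and the node protein gene Gldn. Cd74 and H2-Ab1, genes of antigen presentation on macrophages and dendritic cells, were also higher, with Cd74 at 62.4, 1.58, 62.2 and 0.663 CPM. On the other side, endothelial genes had the lowest ratios without passing the test. Cldn5, the endothelial tight-junction claudin, had 8.04, 345, 8.39 and 77.7 CPM (log2 difference -4.29, adjusted p = 0.18), beside endothelial markers in 73.9% of the fibroblasts of WT GFP- and 7.76% of those of Sod1KO GFP-.

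In the single-class fibroblasts, tendon genes were higher in GFP+ in both pairs. These cells numbered 554, 37, 1039 and 784, so the WT GFP- values rest on few cells. Of 8753 genes tested, 48 were higher in GFP+ (0.548%) and 14 lower (0.16%). The tendon list had 8 of 12 members called higher and 11 higher in both pairs, with a median log2 difference of 1.30 against -0.01 over all genes. Its median was 1.11 in the WT pair and 1.34 in the Sod1KO pair.

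Thbs4, a thrombospondin of tendon matrix, had 1977 CPM in WT GFP+ and 557 in WT GFP-, against 2039 and 796 in the Sod1KO pair (log2 difference 1.63, SE 0.15, adjusted p = 0.027). Its WT GFP- level came from 353 UMIs in 7 cells, and 1 cell held 71.7% of them. Cilp2, a cartilage and tendon matrix protein, had 370, 123, 438 and 142 CPM (1.66, adjusted p = 0.026), with 2 cells behind the WT GFP- value. Tnmd, which encodes tenomodulin, had 682, 324, 712 and 272 CPM (1.29), and Scx, the tendon transcription factor scleraxis, 177, 75.8, 278 and 70.1 CPM (1.72). Fmod, Kera, Col11a1 and Wif1 had log2 differences of 1.05, 1.21, 1.52 and 1.31. The GFP+ library lay above its GFP- partner for all of these genes.

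Without the genotype block and with all 4 libraries, the tendon list had 0 calls and a median of 1.28. With the block, when the richest cell of each gene was left out of each library, the list had 0 calls and a median of 2.21. With 1 library and the block left out it had 8 calls without WT GFP-, 3 without Sod1KO GFP-, and 0 without either GFP+ library. Tenocyte or endoneurial fibroblast markers were present in 20.9%, 10.8%, 24.0% and 11.5% of the single-class fibroblasts. When those cells were left out too, 6 members were tested, 0 were called and the median was 0.83, and Thbs4 and Rflnb, an actin-regulating refilin, had log2 differences of -0.69 and -0.40. All the tenocyte markers, Thbs4 among them, are members of the tendon list. Leaving out cells by these markers selects against the list itself, so this comparison cannot test it.

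Genes outside the tendon list were called as well. Spp1, which encodes osteopontin, had 42.1, 0, 81.4 and 0.92 CPM (adjusted p = 0.0064). Its fold was 8.88 in WT, with 3 UMIs put for the 0 of WT GFP-, and 88.5 in Sod1KO. Pdzrn4, a ubiquitin ligase family member, had 25.2, 0, 77.9 and 1.92 CPM (adjusted p = 0.007), and Shisal2b 44.4, 0, 53.0 and 4.94 CPM. The UMIs came from 21, 0, 73 and 11 cells for Pdzrn4 and 25, 0, 48 and 9 for Shisal2b. Both genes were thus in few cells, and their 0 among the 37 cells of WT GFP- carries little weight. The fibrillar collagen chain gene Col1a2 and Sparc, a collagen-binding matrix protein, were higher by 0.83 and 0.60 on the log2 scale. Reln had 25.4, 1.58, 45.2 and 7.03 CPM (2.83), the opposite direction to that in endothelial cells. Its UMIs came from 30, 1, 67 and 13 cells, and 1 cell held 66.7% of those of Sod1KO GFP-. Rflnb (2.15), Scube2, C1qtnf4, Ptx4 and the glutamate receptor gene Gria4 were called higher too.

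Fewer genes were lower in the single-class fibroblasts of GFP+. The lowest ratio was that of the endothelial receptor gene Flt1, at 1.05, 18.9, 2.19 and 19.0 CPM (log2 difference -3.36, adjusted p = 0.043). Its UMIs came from 8, 9, 26 and 103 cells, and their source was not tested. Hmcn2, a basement-membrane hemicentin, had 94.6, 493, 113 and 360 CPM (log2 difference -1.96, adjusted p = 0.035). Fbln2, fibulin 2, had 466, 1317, 331 and 804 CPM (-1.34, adjusted p = 0.03). Myoc, which encodes myocilin, had 1147, 3495, 737 and 1471 CPM (-1.25, adjusted p = 0.044), and it was the 1 member called among 12 of the parenchymal fibro-adipogenic list. The median of the adventitial list was 0.22 in the WT pair and -0.50 in the Sod1KO pair.

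**Figure D4:**
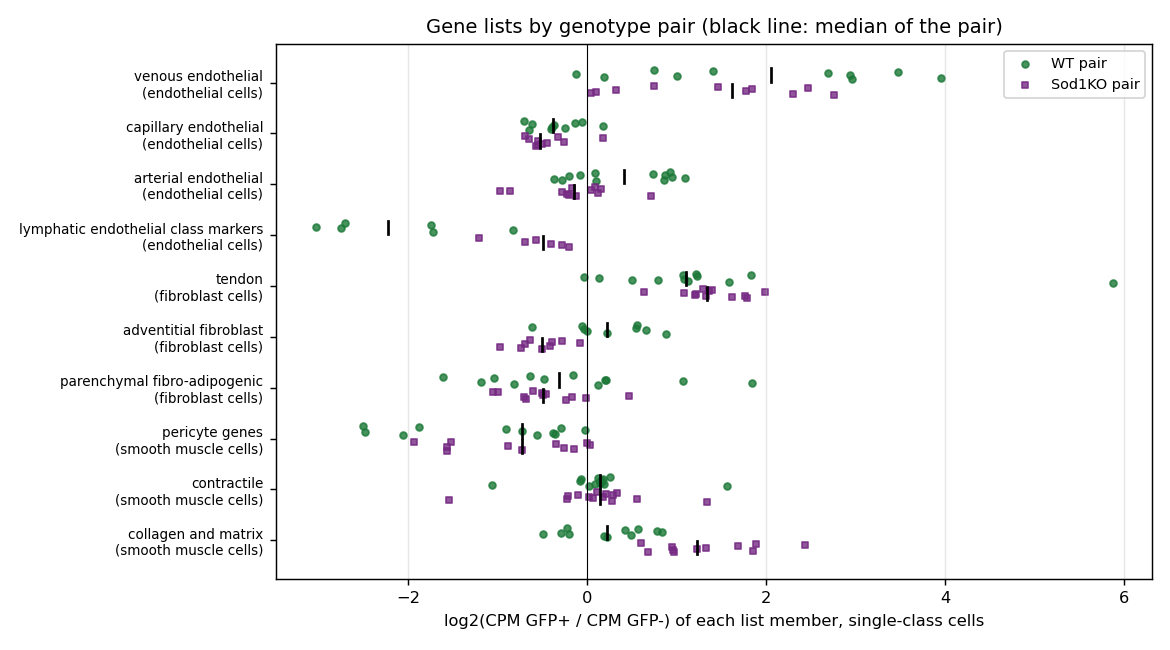
Log2 ratio of GFP+ over GFP- CPM (horizontal axis) of each member of the gene lists in single-class cells, with circles for the WT pair, squares for the Sod1KO pair and a black line at the median of each. The medians of the venous list in endothelial cells (2.05 and 1.62) and the tendon list in fibroblasts (1.11 and 1.34) lie above 0 in both pairs, and the pericyte list in smooth muscle cells (-0.72 and -0.73) below 0.

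Over all smooth muscle cells, contractile genes were higher in GFP+ and endothelial, interferon and red cell genes lower. Of 9067 genes tested, 885 were called higher (9.76%) and 1178 lower (13%). Contractile genes were called higher in 12 of 14 cases, with Tagln, an actin-binding protein of smooth muscle, at 11637, 3541, 10654 and 3974 CPM (log2 difference 1.69, adjusted p = 0.0085, and -0.021 once cells with markers of any other class, pericytes included, were left out). Capillary genes were called lower in 8 of 10 cases, arterial genes in 9 of 11 and interferon and MHC genes in 12 of 12. These ran beside endothelial markers in 83.1% and 68.6% of the smooth muscle cells of WT GFP- and Sod1KO GFP-, against 15.5% and 17.9% of those of the GFP+ libraries.

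Schwann genes were higher here as well, with Chl1 at 24.7, 0.188, 29.1 and 0.0467 CPM and Cdh19 called with it. The haemoglobin gene Hbb-bs had 47.4, 3487, 565 and 4283 CPM (log2 difference -4.43, adjusted p = 0.024). Ccl21a, the lymphatic chemokine, had 0.106, 6.01, 0 and 76.4 CPM.

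Single-class smooth muscle cells numbered 560, 51, 415 and 240, and their clearest difference was in genes of pericytes, which were lower in GFP+. Of 8010 genes tested, 81 were higher in GFP+ (1.01%) and 108 lower (1.35%). The pericyte list had 6 of 11 members called lower and 0 higher (1 of the 11 had a fitted difference above 0), with 10 lower in both pairs and a median log2 difference of -0.63.

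Rgs5, a regulator of G-protein signalling that marks pericytes, had 579, 2133, 647 and 1852 CPM (log2 difference -1.68, SE 0.12, adjusted p = 0.002). Steap4, a metalloreductase, had 27.4, 156, 39.3 and 150 CPM (-2.18). Kcnj8 and Abcc9, the subunits of the vascular ATP-sensitive potassium channel, had log2 differences of -1.97 and -1.77. Ndufa4l2 and Cox4i2, mitochondrial subunits of pericytes, had -0.78 and -0.63. For each of these genes both GFP- libraries lay above both GFP+ libraries.

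Cells with at least 3 pericyte markers made up 64.3%, 60.8%, 57.6% and 68.8% of the single-class smooth muscle cells. When they were left out, 200, 20, 176 and 75 cells remained, 7 members of the list were tested, 1 was called lower and the median was -0.0039. All the pericyte markers, Rgs5, Kcnj8 and Abcc9 among them, are members of the list. Leaving out cells by these markers selects against the list itself, so this comparison cannot test it. Without the block and with all 4 libraries the list had 3 calls, and with 1 library left out as well it had 4 calls without WT GFP+, 0 without WT GFP-, 4 without Sod1KO GFP+ and 0 without Sod1KO GFP-.

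Other genes were lower with the pericyte list. Cd36 had 35.6, 198, 21.4 and 149 CPM (log2 difference -2.61, adjusted p = 0.0019). Ednrb, an endothelin receptor, had 32.5, 104, 9.93 and 71.9 CPM (-2.21). The chemokine gene Cxcl12 had 118, 373, 103 and 254 CPM (-1.45). Opcml, the phosphodiesterase gene Pde8b, Art3 and Col15a1 were called lower too.

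Among the genes higher in the single-class smooth muscle cells of GFP+, Actc1, the cardiac actin, stood at 42.6, 0, 48.6 and 2.53 CPM (adjusted p = 0.0023). Its fold was 13.9 in WT, with 3 UMIs put for the 0 of WT GFP-, and 19.2 in Sod1KO. S100a4 had 247, 77.6, 308 and 72.1 CPM (log2 difference 1.94, adjusted p = 0.002), and it was again the 1 member called of 7 tested in the S100 family. Angpt1, the ligand of the endothelial receptor Tie2, had 23.0, 2.04, 31.6 and 9.21 CPM (2.04), and its relative Angpt4 16.9, 4.08, 22.8 and 6.45 CPM (1.88). Fst, which encodes follistatin, an activin antagonist, had 41.4, 12.3, 76.6 and 8.98 CPM (2.75). Ccl19, Pdgfc, the netrin receptor gene Unc5c and the calcium release channel gene Ryr3 were called higher with them. The WT GFP- values of Angpt1, Ccl19 and Pdgfc came from 2 cells each.

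Contractile genes did not share 1 direction in the single-class cells. Of 14 members, Actg2, the enteric smooth muscle actin, was called higher at 139, 47.0, 293 and 116 CPM (1.43). Casq2, the calcium-binding protein of the sarcoplasmic reticulum, was called lower at 138, 288, 84.2 and 246 CPM (-1.29). The median of the list was 0.18. The matrix genes Eln, Fn1 and Postn were called higher among 11 tested, with elastin (Eln) at 439, 246, 705 and 364 CPM (0.92). Without the block, 0 of the 11 matrix genes were called with all 4 libraries or without Sod1KO GFP+, Sod1KO GFP- or WT GFP-, and 4 without WT GFP+.

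S100b, whose promoter drives the reporter, was compared across the single-class cells of 8 classes. Schwann cells had the highest level, at 561 CPM in WT GFP+ and 336 in Sod1KO GFP+, and the 3 and 10 Schwann cells of the GFP- libraries had 2090 and 468 CPM. Perineurial cells had 72.5, 61.3, 57.1 and 64.9 CPM, with no order between the sorts. Fibroblasts followed at 36.6, 15.8, 40.1 and 20.3 CPM, a log2 difference of 1.09 that did not pass the test (adjusted p = 0.11). Smooth muscle cells had 5.02, 0, 11.6 and 2.76 CPM, tenocytes 5.86, 0, 8.10 and 4.19, and endothelial cells 2.32, 1.90, 4.48 and 2.46. Pericytes had 7.47, 0, 17.2 and 3.84 CPM and macrophages 0.555, 3.75, 1.64 and 0. The single-class macrophages numbered 97, 13, 133 and 56, and the tenocytes of WT GFP- 16. A value of 0 or of a few CPM in classes this small rests on very few UMIs and gives no order between the sorts.

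In fibroblasts, 27.8%, 18.9%, 29.5% and 20.4% of the single-class cells had an S100b UMI. The cells had a median of 12610.5, 16941, 12406 and 14795.5 UMIs. After thinning to 2000 UMIs per cell these shares were 8.74%, 2.86%, 8.44% and 4.25%. In endothelial cells, which are not known to make S100b, the shares were 2.40%, 2.12%, 4.35% and 2.96%, and the median UMIs per cell 8185.5, 8421, 7390.5 and 10120. Thinned, the shares were 1.14%, 0.995%, 1.18% and 0.933%. The fibroblast shares lay above the endothelial ones in every library. Among fibroblasts with no UMI of the other 5 Schwann markers, 27.0%, 14.7%, 27.0% and 19.7% had an S100b UMI. The thinned difference in WT rests on 1 cell with a UMI in WT GFP-.

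**Figure D5:**
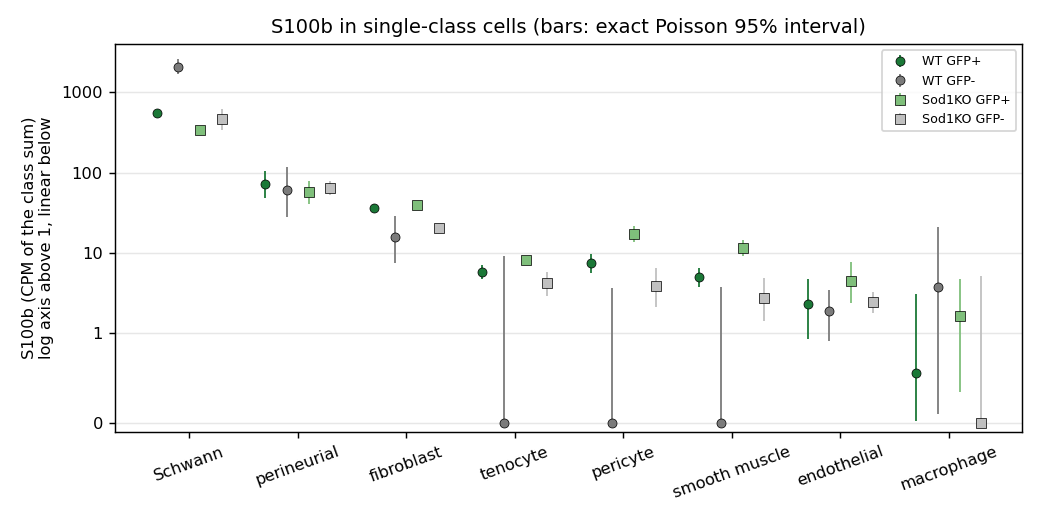
S100b level (CPM, log axis above 1 and linear below) in the single-class cells of each class in the 4 libraries, with exact 95% Poisson intervals for counting error. Schwann cells lie highest in each library, and fibroblasts of both GFP+ libraries (36.6 and 40.1 CPM) lie above those of their GFP- partners (15.8 and 20.3 CPM).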

How the data were processed

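RNA was profiled in 4 libraries, 1 for each sort and genotype. The authors deposited raw UMI counts, made with Cell Ranger and limited to barcodes it called as cells. The file headers and the submitters' processing notes name Cell Ranger 7.1.0, and the notes also name mm10. The methods of the study give a newer version. For the build they name both a later one with EGFP and the one that mm10 stands for. They also remove ambient RNA and doublets, and the deposited counts precede those steps. Injured muscle was not analysed here. Total UMIs ran from 21959719 to 105954116 per library.

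Barcodes were filtered at over 200 genes and under 10% mitochondrial UMIs. No doublet was removed at first; leaving out the highest simulated-doublet scores, at an assumed 0.8% per 1000 barcodes, marked 210, 27, 366 and 287 cells and served as an alternative. Class sums were tested in edgeR 4.0.16 (R 4.3.3) by the quasi-likelihood test with TMM scaling, genotype as a block, a mean of at least 10 CPM and at least 20 UMIs in all, and a Benjamini-Hochberg adjusted p under 0.05. DESeq2 1.42.0 was an alternative. Counts, shares and intervals were computed with Python 3.11.15, numpy 2.4.6, scipy 1.17.1 and pandas 2.3.3. In a fold, 3 UMIs stood in for a library with none. Same-genotype libraries are pairs because they come from the same pooled mice; their deviations from the sort means correlated at 0.54, 0.019 and 0.20 across all endothelial, fibroblast and smooth muscle genes, and at 0.37, 0.25 and 0.30 in single-class cells. Cultures or animals were not replicated within a group. The p-values thus weigh the mean sort difference against the disagreement of 2 pairs of pools, moderated across genes. On simulated counts with 200 changed genes, between 94.7% and 100% of 4-fold and between 22.0% and 32.3% of 2-fold changes were recovered, with 0 to 12 false calls. The simulation gave every gene the same dispersion and had no genotype difference and no genes held by single cells. These rates hold for that setting and not for the real counts.

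The named genes were the 12 highest and 12 lowest with the same sign in both pairs, ranked by the smaller log2 ratio, plus S100b, Mbp, Sox10 and up to 4 called members of each list. Some genes that the rule selects are not reported here. The classes, lists and tests were chosen with earlier results of these data known. The single-class ranking, its limit of 25% of UMIs in 1 cell, and several alternatives for single-class cells were chosen after seeing the data, as were a few further named genes (Tagln, Reln in fibroblasts, Lyz2 and the other members given for a list beyond 4).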

Additional observations from a re-analysis of the deposited data

How the results depend on the processing

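In all cells, the 1005 endothelial calls became 2810 with no CPM minimum, 334 at 50 CPM, 183 with no replicate block, 132 with doublets out, 169 with ambient RNA subtracted, 65 after thinning, 273 in single-class cells, 401 with ambient RNA subtracted from those, 479 with related classes out too and 355 with the richest cell out. The 24 fibroblast calls became 364 with DESeq2, 1105, 91, 9, 12, 6, 46, 62, 96, 1 and 2 in the same order, and 40 with 2 UMIs per marker. The 2063 smooth muscle calls became 4553 with no CPM minimum, 1023 at 50 CPM, 453 thinned, 1187 with 2 UMIs per marker, 189 in single-class cells, 117 with ambient RNA subtracted from those, 11 with related classes out and 279 with the richest cell out. Leaving out 1 library gave 146 to 286, 2 to 1116 and 874 to 1781 calls. Of the fibroblast values, 14 arose without WT GFP+, 98 without WT GFP-, 2 without Sod1KO GFP+ and 1116 without Sod1KO GFP-. In single-class cells, DESeq2 gave 169, 118 and 111 calls against 273, 62 and 189 by edgeR, no replicate block gave 2, 0 and 26, and leaving out 1 library gave 3 to 28, 3 to 94 and 0 to 45. RLE scaling gave 133 fibroblast calls. Total-UMI scaling moved the smooth muscle median by -0.12 and split its calls into 718 higher and 1440 lower.

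The S100b difference was 1.92 with DESeq2 and with no CPM minimum in fibroblasts and passed the test there, and 1.59 to 2.33 with 1 library out (past the test at 1.59 without WT GFP- and 2.33 without Sod1KO GFP-). With 1 library out it ran from 3.91 to 4.28 in endothelial and from 2.64 to 3.41 in smooth muscle cells, over all cells of the class. In single-class cells S100b was below the count filter in both, and its log2 ratio was 0.28 (WT) and 0.86 (Sod1KO) in endothelial cells and 2.07 in smooth muscle cells of Sod1KO, with no UMI in those of WT GFP-. Over all cells of each class, the share differences by pair were 35.5 to 42.4 points for Schwann and -66.1 to -50.6 for endothelial cells. They were 4.29 to 5.32 for fibroblasts and -5.38 to -2.78 for smooth muscle cells. Under the alternatives, the mean Schwann difference was 26.6 in single-class cells and 32.7 thinned, and the endothelial one -22.6 in single-class cells. The mean fibroblast difference was 5.74 in single-class cells, 2.67 with 2 UMIs per marker, 7.96 with a strict filter and 1.75 thinned. The mean smooth muscle difference reversed to 5.43, 1.79 and 4.35 under the first, second and last of these and was -9.53 with the strict filter. Among named genes, 830 settings kept direction and call, 443 kept direction and lost the call, 18 gained it and 3 reversed with related classes out: Thbs4 (-0.69) and Rflnb (-0.40) in fibroblasts and Tagln (-0.021) in smooth muscle. Thbs4 is itself a marker of the tenocytes that were left out. The cause of the reversals was not tested. The single-class values of WT GFP- rest on few cells (37 fibroblasts and 51 smooth muscle cells).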
